A study of Rattus norvegicus with 12 samples.

Results

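A set of 10 genes of WNT signaling was followed in cultured rat oligodendrocyte precursor cells (OPCs). They are the ligands *Wnt7a* and *Wnt7b*, the transducers *Ctnnb1* and *Daam2*, the destruction complex genes *Axin1*, *Apc* and *Gsk3b*, and the feedback genes *Axin2*, *Znrf3* and *Apcdd1*. They were picked by symbol, 10 of the 30562 genes of the count table, and each symbol stood on 1 row. Gene-level RNA-seq counts were available for 12 libraries of wild-type OPCs. Of these, 6 were mild-hypo-OPCs, kept at a fraction of inspired oxygen (FiO2) of 5%, and 6 were standard OPCs, kept in room air. Every n below counts libraries, which are not known to be separate cultures. In both groups the cells were shaken off mixed glial cultures of newborn Sprague-Dawley cortex and grown with FGF-2, PDGF-AA and B27, so the growth factors were shared by both groups. The comparison asks whether mild hypoxia alters OPC transcripts, here those of the WNT pathway. The labels give the exposure as 6 hours, whereas the methods of the study give it in days, and the duration was not settled here.

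WNT ligands are lipid-modified secreted proteins that bind Frizzled receptors and LRP co-receptors. Without ligand, a destruction complex built on AXIN and APC lets GSK3B phosphorylate beta-catenin, which is then degraded. With ligand, beta-catenin accumulates, enters the nucleus and acts with TCF/LEF factors, whose targets include inhibitors of the pathway itself. In the developing brain, *Wnt7a* and *Wnt7b* are ligands of neural progenitors and of the oligodendrocyte lineage that act on endothelial cells, while high beta-catenin signaling within OPCs is known to delay their differentiation.

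Transcripts of *Axin2* are a common readout of beta-catenin signaling, and *Wnt7a* is a ligand gene. The 250 bases upstream of their annotated transcription starts are therefore shown. Whether these starts are the ones used in OPCs was not tested. The windows are taken from RefSeq on the GRCr8 assembly, whereas the counts were made on mRatBN7.2. *Axin2* lies on the plus strand at chr10:94398535-94398784 and *Wnt7a* on the minus strand at chr4:125466150-125466399. Both are written 5′ to 3′ along the gene. Capitals mark matches, on either strand, to the TCF/LEF core CTTTGA or to a HIF core, ACGTG or GCGTG, HIF being the hypoxia-inducible transcription factor.
Axin2: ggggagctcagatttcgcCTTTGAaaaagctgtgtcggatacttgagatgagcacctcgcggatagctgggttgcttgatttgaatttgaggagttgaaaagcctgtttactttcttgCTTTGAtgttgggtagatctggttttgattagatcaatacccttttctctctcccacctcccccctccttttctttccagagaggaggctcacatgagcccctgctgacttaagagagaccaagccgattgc
Wnt7a: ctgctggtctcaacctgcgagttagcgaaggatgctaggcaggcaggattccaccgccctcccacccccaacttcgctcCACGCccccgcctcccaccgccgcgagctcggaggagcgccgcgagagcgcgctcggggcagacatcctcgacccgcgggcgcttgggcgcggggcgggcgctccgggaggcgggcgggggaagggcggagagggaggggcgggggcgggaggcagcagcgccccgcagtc
*Axin2* held the TCF/LEF letters at 232 and at 132 bases before the start, and *Wnt7a* held a HIF core at 171 bases before it, read on the opposite strand as CACGC.

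RefSeq windows were matched for 7 of the 10 genes, and those of *Wnt7b*, *Axin1* and *Znrf3* were not analysed here. The TCF/LEF core was present in 2 of the 7, *Axin2* and *Apcdd1*, and in 13.8% of all 27457 promoter windows of the same length. A HIF core was present in 4 of the 7, *Wnt7a*, *Apc*, *Gsk3b* and *Apcdd1*, and in 37.9% of all windows. These are matches of letters and not measured sites, and a window without a match says only that these letters are not in it.

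The groups differed in depth. Library totals were between 4111669 and 9022324 counts for mild-hypo-OPCs against 1356079 to 2797513 in standard OPCs, without overlap, and ribosomal RNA took 17.4% to 25.2% and 23.9% to 38.4% of them. Depth and condition cannot be told apart by the design. OPC identity was checked with *Pdgfra* (236 ± 26.8 CPM in mild-hypo-OPCs and 229 ± 33.8 in standard OPCs, SD, n = 6 each), *Cspg4* (71.5 and 63.0), *Sox10* (554 and 472) and *Olig2* (306 and 288), which were expressed in both groups. Of the 8938 genes tested, 626 rose (7.00%) and 1520 fell (17.0%) in mild-hypo-OPCs (edgeR's quasi-likelihood test, adjusted p under 0.05). Levels are given as CPM, a gene's counts as a share of the library total after TMM scaling, which do not account for transcript length and so are compared between groups and not between genes.

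Among the 10 genes, *Wnt7b* was the single gene called, higher by 0.36 on the log2 scale in mild-hypo-OPCs. The other ligand, the beta-catenin gene, the destruction complex genes and the tested feedback gene did not pass the test in either direction. The filter (CPM above 10 in at least 1 library) was passed by 7 of the 10 genes, and *Axin2*, *Apcdd1* and *Daam2* stayed below it with highest unscaled values of 5.66, 9.61 and 2.88 CPM. The 1 called gene of 7 stands beside the 7.00% of all tested genes called higher, and 0 of 7 were lower beside 17.0% (edgeR, and 0 by limma-voom and by DESeq2), with 2 genes, *Wnt7b* and *Apc*, at an unadjusted p under 0.05. The median log2 fold change was 0.00 over the 7 genes and -0.00 over all genes tested.

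**Figure D1:**
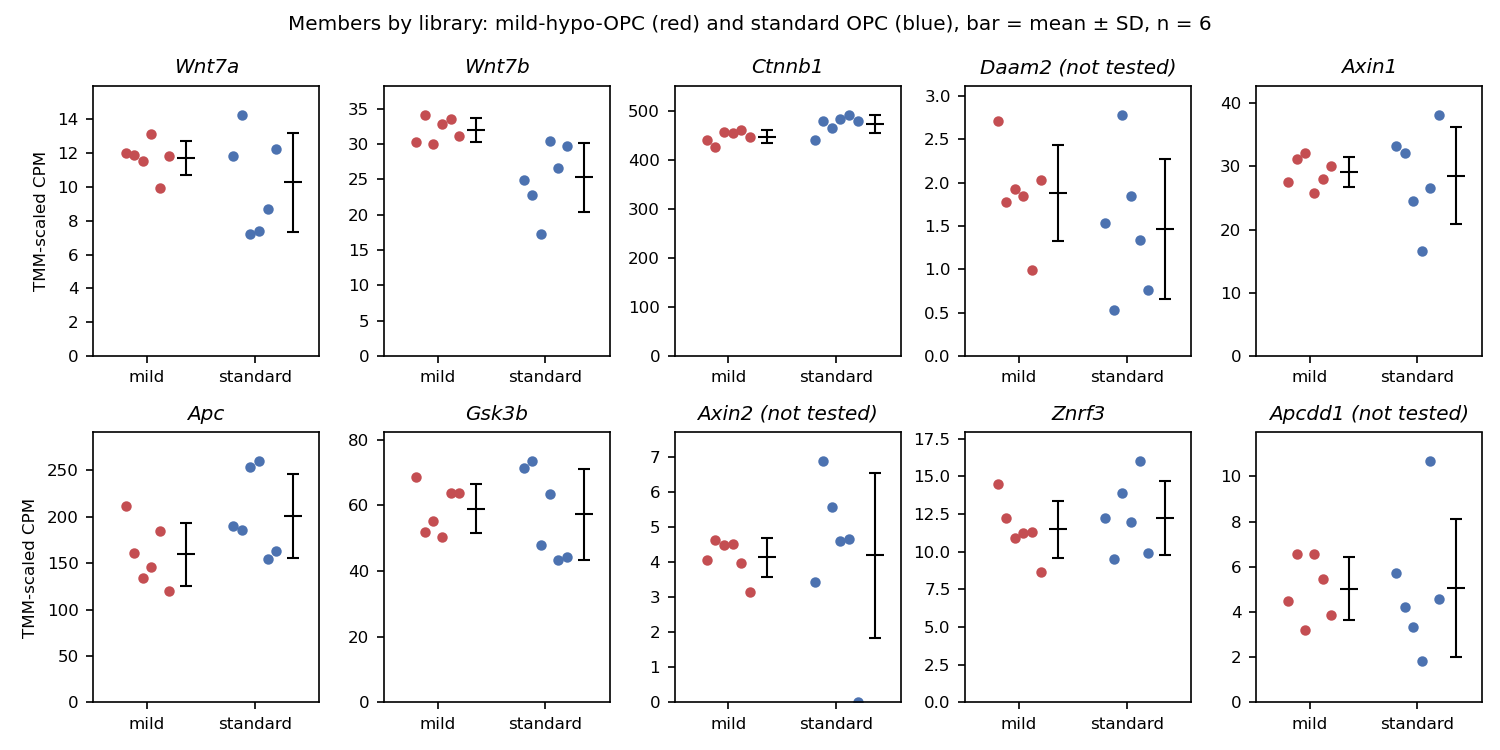
TMM-scaled CPM (y axis, linear, from 0) of each of the 10 genes in the 6 mild-hypo-OPC libraries (red) and the 6 standard OPC libraries (blue), with bars at the mean ± SD. *Wnt7b* lies between 30.0 and 34.1 CPM in mild-hypo-OPCs and in standard OPCs between 17.2 and 30.4, and the points of the groups overlap in every panel.

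*Wnt7b* (ENSRNOG00000015750) was measured by 160 to 290 counts per library in mild-hypo-OPCs and by 31 to 65 in standard OPCs. Its level ran from 30.0 CPM through a median of 32.0 to 34.1 in mild-hypo-OPCs, with a mean of 32.0 ± 1.73 (SD, n = 6). In standard OPCs it ran from 17.2 through 25.8 to 30.4, with a mean of 25.3 ± 4.89 (SD, n = 6). All but 1 of the standard libraries, replicate 4, lay below every mild-hypo library, and 4 of the 6 mild-hypo libraries lay above every standard library, so the groups overlapped narrowly. Standard OPC replicate 3 was the lowest at 17.2 CPM.

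The fitted *Wnt7b* fold was 1.29 (95% interval 1.09 to 1.52), or 0.36 on the log2 scale with a standard error of 0.12 (edgeR adjusted p = 0.0272 over all genes tested). The scatter among mild-hypo libraries, a coefficient of variation of 5.42%, was below the 7.21% that counting alone gives, and that among standard libraries was 19.3% against 15.9%. The call was lost without standard OPC replicate 2 (0.34, edgeR adjusted p = 0.0532), without standard OPC replicate 3 (0.27, 0.0717) and when every library was thinned to the smallest total (0.20, 0.428). The thinning was a single random draw, so its estimate also carries sampling noise. With the log2 library total as a covariate the estimate was 0.66 with an adjusted p of 0.307 (edgeR), and with replicates 4 to 6 alone it was 0.18 (0.480).

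**Figure D2:**
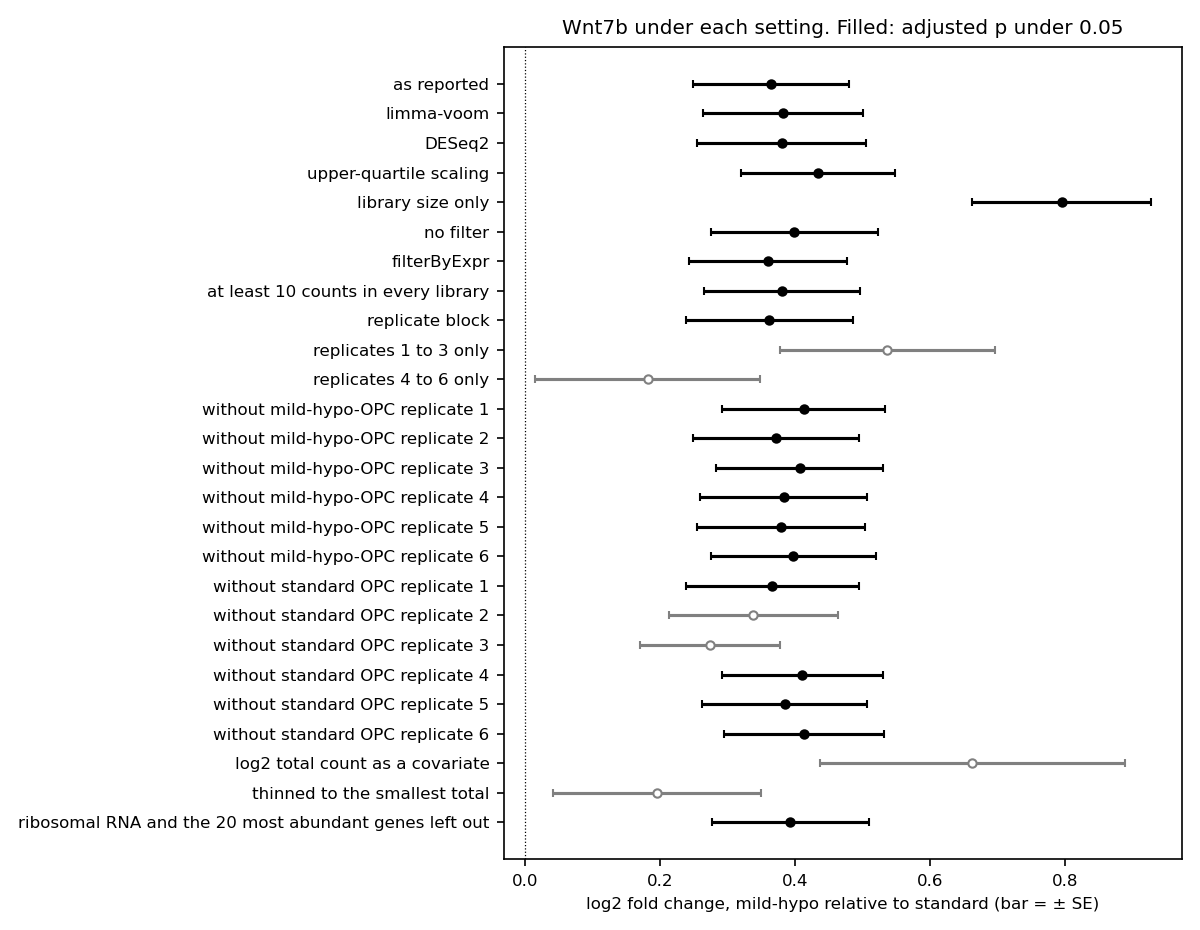
*Wnt7b* log2 fold change of mild-hypo-OPCs relative to standard OPCs (x axis) as reported and under 25 other settings (y axis), with bars of ± 1 standard error and filled points where the adjusted p is under 0.05. Every estimate is above 0, from 0.18 to 0.80, and 19 of the 25 other settings keep the call.

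Some markers of other cell types also differed between the groups. The summed level of 8 oligodendrocyte markers was 12938 to 14290 CPM in mild-hypo-OPCs against 8796 to 12754 in standard OPCs, without overlap, and 5 of the 8 were called higher, beside 7.00% of all tested genes. The summed level of 8 neuron markers was 136.8 to 155.1 CPM against 81.3 to 119.3, also without overlap, with 4 of them tested, 1 called and *Slc17a6* at a mean below 1 CPM. The called gene, *Tubb3*, made up most of that difference (98.9 ± 6.70 against 59.4 ± 11.0 CPM, SD, n = 6 each), while *Rbfox3* (2.67 and 3.36 CPM) and *Gad2* (3.01 and 4.10 CPM) had lower means in mild-hypo-OPCs. Among 9 OPC markers 3 were called higher, among 6 tested astrocyte markers 2, and among 3 tested microglial markers 1, to be read beside the same 7.00%. Endothelial and mural markers (7 in the table) all had means below 1 CPM, as did 5 of 6 fibroblast and meningeal markers, and no marker of these lists was called lower. The part of these cells in the *Wnt7b* difference was not tested, and in bulk libraries more cells of a type cannot be told apart from more RNA per cell.

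*Wnt7a* (ENSRNOG00000048782), the close relative of *Wnt7b*, was measured by 60 to 115 counts in mild-hypo-OPCs against 8 to 31 in standard OPCs. It ran from 9.96 CPM through a median of 11.9 to 13.1 in mild-hypo-OPCs and from 7.23 through 10.3 to 14.3 in standard OPCs. The highest and the lowest library were both standard ones, so the mild-hypo range lay within the standard range. The log2 fold change was 0.15 with a standard error of 0.17 and a 95% interval of -0.20 to 0.51 (edgeR adjusted p = 0.542), an interval that includes the *Wnt7b* estimate. A difference between the responses of the ligands was tested as the ratio of *Wnt7b* to *Wnt7a* counts within each library. The ratio was 274.9% ± 33.0 in mild-hypo-OPCs and 261.9% ± 88.2 in standard OPCs (SD, n = 6 each, exact two-sided permutation p = 0.552, adjusted p = 0.644 over 7 ratios), so no difference between the ligands was shown.

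*Wnt7a* and *Wnt7b* held most counts of the ligand family. All 19 WNT ligand genes were in the table, 14 of them never exceeded 3 counts in any library, and 2 passed the filter. The 2 *Wnt7* genes together held 87.2% ± 1.56 of ligand counts in mild-hypo-OPCs and 83.7% ± 4.34 in standard OPCs (SD, n = 6 each), with ranges of 84.5% to 88.6% and 77.2% to 87.5% that overlapped. *Wnt5a*, a ligand known for beta-catenin-independent signaling, had 20 to 39 counts in mild-hypo libraries and 4 to 9 in standard ones, which corresponds to 4.32 ± 0.706 and 4.38 ± 1.90 CPM. These shares rest on 253 to 457 ligand counts per mild-hypo library and 51 to 110 per standard library, and they are not corrected for transcript length. *Wnt16* had 2 to 9 and 1 to 6 counts, or 0.769 ± 0.432 CPM in mild-hypo-OPCs and 1.82 ± 0.799 in standard OPCs (SD, n = 6 each), with overlap. Its log2 fold change without a filter was -1.24 with a standard error of 0.49 (edgeR adjusted p = 0.0948).

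*Ctnnb1* (ENSRNOG00000054172), which encodes beta-catenin, was the most deeply counted of the 10 genes, with 2217 to 4220 counts in mild-hypo libraries and 525 to 1154 in standard ones. It ran from 427 CPM through a median of 450.5 to 461 in mild-hypo-OPCs and from 441 through 479.6 to 492 in standard OPCs. The standard libraries lay mostly above, and the groups overlapped. The log2 fold change was -0.08 with a standard error of 0.07 and a 95% interval of -0.22 to 0.06 (edgeR adjusted p = 0.409), the narrowest interval among the 10 genes. Beta-catenin is regulated mainly at the protein level, which these libraries do not measure.

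*Daam2* (ENSRNOG00000053945), a formin that binds Dishevelled and is known as a WNT regulator in oligodendrocyte lineage cells, was close to the detection limit. It had 6 to 26 counts in mild-hypo libraries and 1 to 5 in standard libraries, or 1.88 ± 0.550 and 1.46 ± 0.808 CPM (SD, n = 6 each). The ranges of 0.996 to 2.71 and 0.528 to 2.78 CPM overlapped. In the fit without a filter the interval ran from -0.47 to 1.31 on the log2 scale (edgeR adjusted p = 0.596), so a change of either sign within these bounds was not excluded.

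The destruction complex genes did not pass the test. *Apc* (ENSRNOG00000020423), the scaffold that is lost in many colon tumors, had the lowest fold of the 7 tested genes. It ran from 120.0 CPM through a median of 153.3 to 211 in mild-hypo-OPCs and from 154.6 through 187.8 to 259.5 in standard OPCs. The groups overlapped widely, with mild-hypo-OPC replicate 1 the highest of its group and standard OPC replicates 3 and 4 the highest of all.

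The *Apc* log2 fold change was -0.33 with a standard error of 0.14 and an interval of -0.62 to -0.03 (edgeR adjusted p = 0.102, although it was under 0.05 before adjustment). Its spread between replicates was far above counting error, with a coefficient of variation of 21.1% against 3.23% in mild-hypo-OPCs and 22.4% against 5.63% in standard OPCs. Without mild-hypo-OPC replicate 1 the estimate was -0.40 and passed the test (edgeR adjusted p = 0.0436), so 1 library decided the call.

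*Axin1* (ENSRNOG00000062714), the rate-limiting scaffold of the complex, ran from 25.8 CPM through a median of 29.0 to 32.1 in mild-hypo-OPCs and from 16.6 through 29.4 to 38.2 in standard OPCs. The mild-hypo libraries lay within the standard range. The log2 fold change was 0.00 with an interval of -0.28 to 0.28 (edgeR adjusted p = 0.994). *Gsk3b* (ENSRNOG00000002833), the kinase of the complex, ran from 50.4 CPM through 59.5 to 68.7 in mild-hypo-OPCs and from 43.3 through 55.7 to 73.4 in standard OPCs. Here too the mild-hypo range lay within the standard one, and the log2 fold change was 0.03 with an interval of -0.25 to 0.30 (edgeR adjusted p = 0.902).

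**Figure D3:**
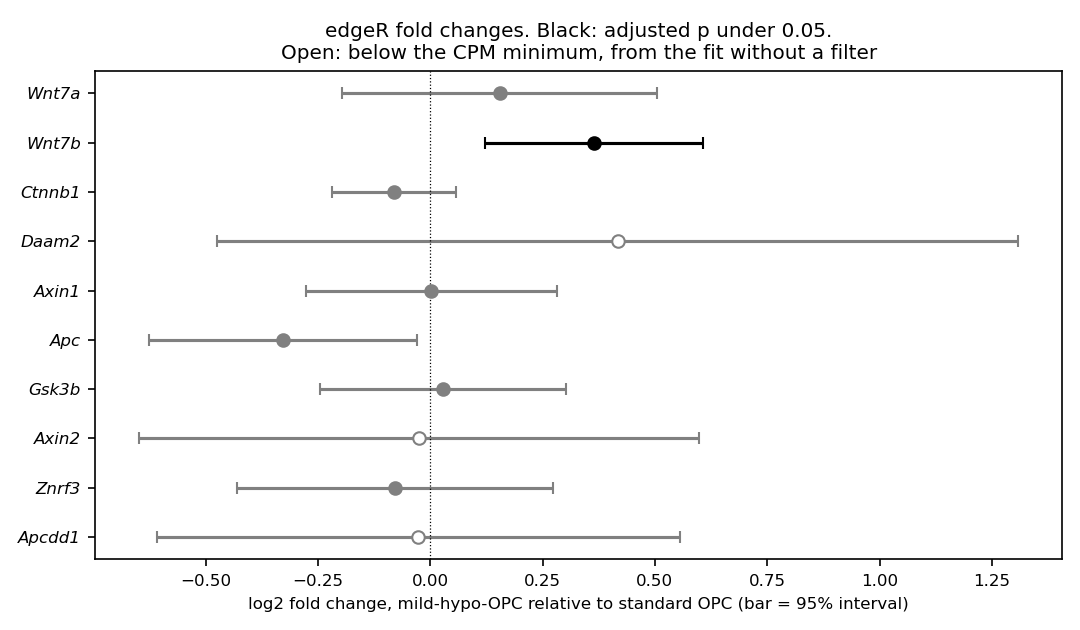
Log2 fold change of mild-hypo-OPCs relative to standard OPCs (x axis) for each of the 10 genes (y axis), with 95% intervals from edgeR. Black marks the 1 gene with an adjusted p under 0.05, *Wnt7b*, and open points mark *Daam2*, *Axin2* and *Apcdd1*, taken from the fit without a filter, whose intervals are the widest.

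The feedback genes showed no called change, and only *Znrf3* could be tested at the main filter. *Axin2* (ENSRNOG00000055010), a second AXIN scaffold that is induced by beta-catenin and limits it, carries the 2 TCF/LEF matches shown above. It ran from 3.13 CPM through a median of 4.28 to 4.62 in mild-hypo-OPCs (17 to 39 counts) and from 0 through 4.63 to 6.87 in standard OPCs (0 to 13 counts). The mild-hypo range lay within the standard range, whose lowest library, replicate 6, had no *Axin2* count. Without a filter the log2 fold change was -0.02 with a standard error of 0.31 and an interval of -0.65 to 0.60 (edgeR adjusted p = 0.964).

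*Znrf3* (ENSRNOG00000067305), a membrane ubiquitin ligase that removes Frizzled receptors, ran from 8.67 CPM through a median of 11.3 to 14.5 in mild-hypo-OPCs and from 9.51 through 12.1 to 16.0 in standard OPCs. The groups overlapped over most of their ranges, and the log2 fold change was -0.08 with an interval of -0.43 to 0.27 (edgeR adjusted p = 0.777). *Apcdd1* (ENSRNOG00000043304), a membrane inhibitor that binds WNT and LRP proteins, ran from 3.21 CPM through 4.98 to 6.57 in mild-hypo-OPCs and from 1.84 through 4.40 to 10.7 in standard OPCs. Its lowest and its highest library were both standard ones. It rested on 2 to 16 counts in standard libraries, and the log2 fold change without a filter was -0.03 with an interval of -0.61 to 0.56 (edgeR adjusted p = 0.960).

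Because the groups differed in depth, the tested genes were also expressed relative to *Ctnnb1* counts of the same library, which uses no scaling factor. This measure was chosen after the data were seen. *Wnt7b* counts were 7.15% ± 0.488 of *Ctnnb1* counts in mild-hypo-OPCs (6.56% to 7.99%) and 5.33% ± 0.974 in standard OPCs (3.71% to 6.29%), SD, n = 6 each. The groups did not overlap, and 4.49% of 8937 genes set against *Ctnnb1* in the same way were likewise higher without overlap. The mean log2 difference was 0.44 (exact two-sided permutation p = 0.00216, the smallest that 6 against 6 libraries can give, adjusted p = 0.0152 over 7 ratios). *Ctnnb1* itself was lower by 0.08 on the log2 scale in the fit above, which enters this ratio.

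The other ratios did not pass. *Wnt7a* was 2.62% ± 0.257 of *Ctnnb1* counts in mild-hypo-OPCs and 2.17% ± 0.636 in standard OPCs (exact permutation p = 0.130, adjusted p = 0.455). *Apc* was 35.7% ± 7.80 and 42.5% ± 9.79 (exact permutation p = 0.203, adjusted p = 0.475). *Axin1*, *Gsk3b* and *Znrf3* differed by 0.15, 0.15 and -0.01 on the log2 scale, and their libraries overlapped. Against the summed counts of the other 6 tested genes of the set, *Wnt7b* was higher by 0.49 with overlap (exact permutation p = 0.00433). Against the tested genes other than ribosomal RNA it was higher by 0.59 without overlap, but 16.4% of all tested genes were higher without overlap against that sum and their median difference was 0.24, which leaves 0.34 for *Wnt7b* relative to the median.

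**Figure D4:**
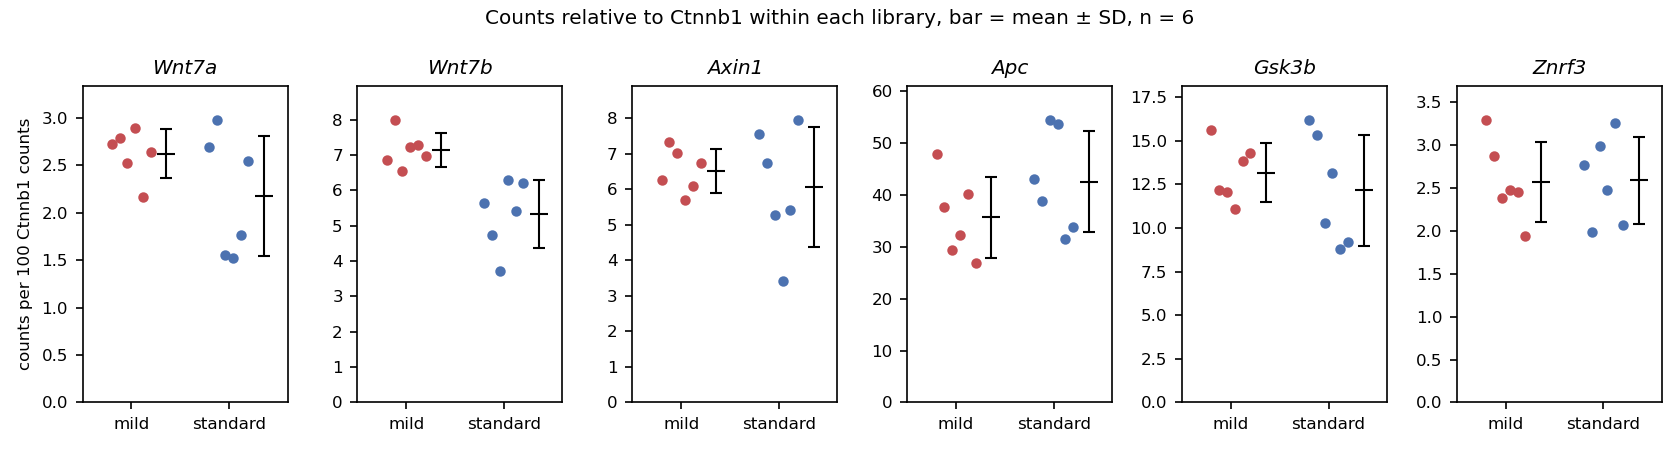
Counts per 100 *Ctnnb1* counts of the same library (y axis, linear, from 0) for the 6 other tested genes in mild-hypo-OPCs (red) and standard OPCs (blue), with bars at the mean ± SD over 6 libraries. *Wnt7b* is the panel without overlap, at 6.56 to 7.99 against 3.71 to 6.29.

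Scaling set the direction of several genes. Divided by library size alone, the median of all tested genes rose by 0.43 on the log2 scale, 61.7% of them were called higher, and so were 5 of the 7 (*Wnt7a* 0.58, *Wnt7b* 0.80, *Ctnnb1* 0.36, *Axin1* 0.43, *Gsk3b* 0.46). Relative to the median of all genes, *Wnt7b* was higher by 0.37 with TMM, with upper-quartile scaling and with library size alone, and *Apc* was lower, at -0.32, -0.32 and -0.31. *Ctnnb1*, *Apc* and *Znrf3* changed sign with library size alone and, set against that median, were at -0.07, -0.31 and -0.09. Each scaling applies the same factor to every gene of a library, so values set against the median stay close whichever is used. Their closeness is therefore no check of these differences.

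The wider pathway was described with 9 lists by role, 133 genes of which 132 were in the table and 70 were tested. These lists include the 10 genes, so the 70 include the 7 already tested above. Of the 70, 2 were called higher, *Wnt7b* itself and *Lgr4* (2.86%, beside 7.00% of all genes). Another 4 were called lower (5.71%, beside 17.0%), and the median log2 fold change was 0.03. The list of ligand processing and secretion held 3 of the 4 lower genes and had a median of -0.14 over its 8 tested genes. *Vps29*, a subunit of the retromer that recycles the WNT carrier Wntless, was 59.8 ± 8.60 CPM in mild-hypo-OPCs and 102.2 ± 20.8 in standard OPCs (log2 fold change -0.76, SE 0.13, edgeR adjusted p = 0.000337), without overlap. Lower genes without overlap made up 5.40% of all genes tested.

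*Tmed2*, a cargo receptor of the early secretory route, fell by 0.46 on the log2 scale (edgeR adjusted p = 0.00378) and *Vps26a*, another retromer subunit, by 0.31 (edgeR adjusted p = 0.0180). These 3 are trafficking genes with many cargoes besides WNT proteins. The dedicated genes of the list, *Porcn*, the acyltransferase of WNT proteins, and *Wls*, which encodes Wntless, were at 0.02 and -0.10 (edgeR adjusted p = 0.911 and 0.473), and *Snx3*, a sorting nexin that works with the retromer in Wntless recycling, was at -0.19 (0.137). Over 25 other settings, *Vps29* was called lower in 24, *Tmed2* in 22 and *Vps26a* in 14. When the log2 library total was a covariate, *Vps29* was at -0.02, *Tmed2* at 0.06 and *Vps26a* at -0.28 (edgeR adjusted p = 0.998, 0.981 and 0.801). In that fit 43 of all tested genes were called lower. With library size alone, where the median of all genes was at 0.43, *Tmed2* was at -0.02 and *Vps26a* at 0.12, which is -0.45 and -0.30 relative to that median. Setting a gene against the median takes out most of what scaling changes, so it is no check on either gene.

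The receptors and co-receptors held no called gene among 10 tested (edgeR, limma-voom and DESeq2, with 1 at an unadjusted edgeR p under 0.05). The destruction complex held none among 18 by edgeR (3 at an unadjusted p under 0.05), 1 higher by limma-voom (*Tnks2*) and 2 higher by DESeq2 (*Tnks2* and *Ppp2r1a*). *Ppp2r1a* and *Ppp2ca*, phosphatase subunits with many substrates, were at 0.16 and -0.12 by edgeR. *Ryk* and *Lrp6*, a receptor kinase-like gene and a co-receptor, were at -0.16 and -0.07. In the R-spondin list, *Lgr4*, a receptor for R-spondins, which shield Frizzled from ZNRF3, rose from 24.0 ± 2.01 to 29.6 ± 2.85 CPM (log2 fold change 0.30, SE 0.10, edgeR adjusted p = 0.0416). Its libraries did not overlap, which held for 2.94% of all genes tested in the higher direction, but it was called in only 10 of 25 other settings and not by limma-voom (adjusted p = 0.0682) or DESeq2 (adjusted p = 0.0506). When the log2 library total was a covariate, *Lgr4* was at -0.03 (edgeR adjusted p = 0.997). Its relative *Lgr5* was too low to test, at 11 to 23 counts per mild-hypo library and 0 to 4 per standard library. Among cytoplasmic transducers, *Csnk1g2*, a casein kinase 1 gamma, fell by 0.23 (edgeR adjusted p = 0.0469) and was called in 4 of the 25, while *Dvl3*, a Dishevelled gene, was at 0.18.

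Secreted antagonists, nuclear factors and target genes held no called gene among 3, 11 and 6 tested (edgeR and limma-voom, 1 in each list at an unadjusted edgeR p under 0.05), and DESeq2 called 1 target gene, *Cd44*. *Dkk3* was at 0.27 (edgeR adjusted p = 0.0618) and *Sfrp1*, which binds WNT proteins, at -0.05. The TCF/LEF gene *Tcf7l2*, known for its role in oligodendrocyte differentiation, was at 0.21 with a standard error of 0.17 (edgeR adjusted p = 0.383), and *Tle5*, a Groucho-related gene, was at -0.09. The targets *Ccnd1* and *Myc*, which respond to many other pathways, were at 0.14 and 0.03. Of 20 feedback and target genes, 14 stayed below the filter.

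Over all lists, 62 genes of the table stayed below the filter, and 50 of them had counts and could be fitted without it. In that fit 3 of the 50 were called higher and 0 lower (edgeR). Of all 17391 genes fitted, 4.22% were called higher and 1517 genes were called lower. Those 17391 include the genes above the filter, so they are no matched background for the 50. The share among genes below the filter alone is not given here. All 3 belong to the list of feedback and target genes, of whose 20 genes 14 stayed below the filter. *Rnf43*, the paralog of *Znrf3* with the same role at Frizzled receptors, was 3.01 ± 0.717 CPM in mild-hypo-OPCs (10 to 31 counts) and 0.899 ± 0.626 in standard OPCs (0 to 3 counts, SD, n = 6 each). Its log2 fold change was 1.78 with a standard error of 0.46 (edgeR without a filter, adjusted p = 0.00638), and the groups overlapped. *Sp8*, a zinc finger factor of the WNT target list, was 3.61 ± 0.628 and 1.71 ± 0.913 CPM (17 to 46 and 1 to 6 counts), with a log2 fold change of 1.08 (SE 0.36, edgeR without a filter, adjusted p = 0.0400) and overlapping groups. It was also called with the filterByExpr filter (1.05, edgeR adjusted p = 0.0234). *Lef1* had 2 to 5 counts in each mild-hypo library and 0 in each standard library (edgeR without a filter, adjusted p = 0.0432), and no fold is given since these counts are near the floor of 3 per library. These 3 genes rest on few counts in the shallower standard libraries, and the part of depth in their difference was not tested. *Nkd1* had 3 to 14 and 1 to 4 counts, and its log2 fold change without a filter was -0.50 with a standard error of 0.48 (edgeR adjusted p = 0.563).

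**Figure D5:**
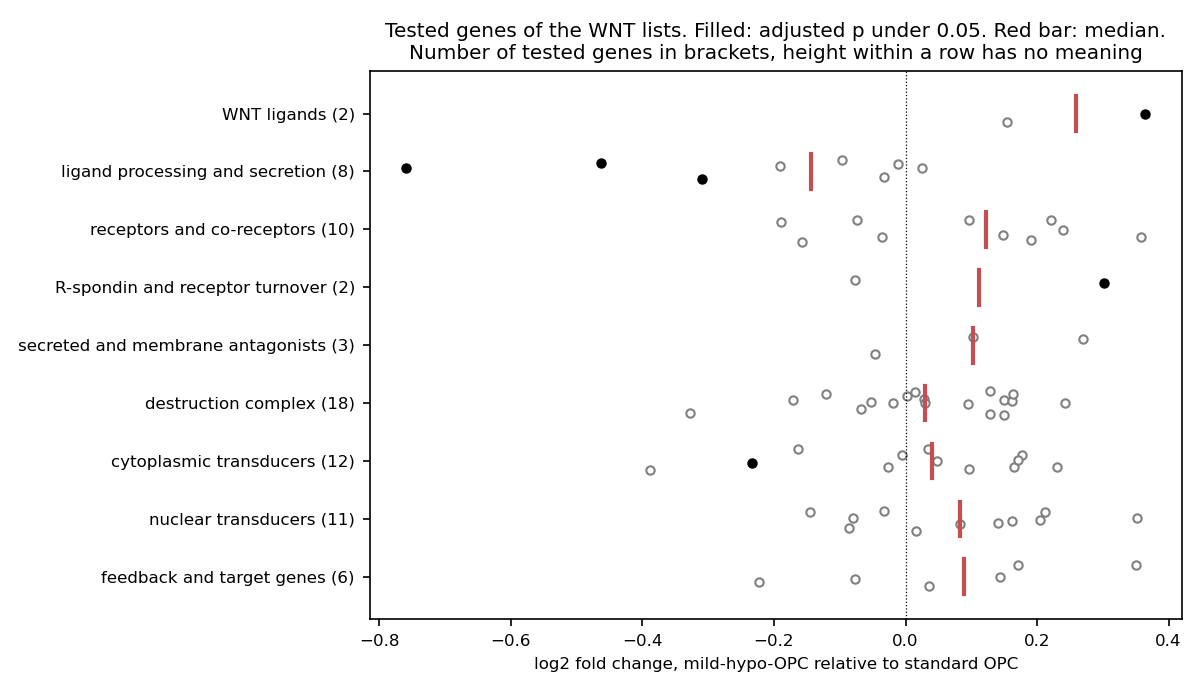
Log2 fold change of mild-hypo-OPCs relative to standard OPCs (x axis) for each tested gene of the 9 WNT lists (y axis), with filled points at an adjusted p under 0.05 and red bars at the list medians. The medians lie between -0.14 for ligand processing and secretion and 0.26 for the 2 ligands.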

How the data were processed

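The deposited table holds whole-number counts per Ensembl gene for 12 libraries, 30562 genes, with 0 columns unused. Per the labels and methods, the authors made strand-specific SureSelect libraries, trimmed reads with Trimmomatic 0.36, checked them in FastQC 0.11.9 and used STAR 2.7.9a (genome mRatBN7.2) for alignment and RSEM 1.3.3 for quantification. The counts carry no normalization, and whether RSEM's estimates were rounded is not given in the sources used here. Groups and replicate numbers came from the labels. Nothing used here ties each library to a separate culture, and the study gives fewer biological replicates per group than the 6 libraries, so p-values measure the spread between these libraries, which may be technical. No 2 libraries of a group were alike within counting error, since chi-square divided by its degrees of freedom was at least 3.22 (at most 19.7).

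A gene entered the fit if 1 or more libraries exceeded 10 CPM (8938 genes). TMM factors, glmQLFit and glmQLFTest were run in edgeR 4.0.16 (R 4.3.3) over all 12 libraries with no term besides condition, and p-values were adjusted by Benjamini-Hochberg (threshold 0.05). Standard errors are those implied by the F statistic. Levels are CPM with TMM-scaled library sizes. Intervals of fold changes are at 95%, and the floor of 3 counts covers counting error only. Within-library ratios were compared with exact two-sided permutation tests in SciPy 1.17.1. Alternatives used limma 3.58.1 (voom), DESeq2 1.42.0, other scalings, filters and subsets of libraries. Thinning to the smallest total was drawn once. The scripts were tested on simulated data.

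The 10 genes, the 9 WNT lists and the marker lists, assembled by hand, were chosen with earlier results of these data known. Named besides the 10 were, per WNT list, genes with an adjusted p under 0.05 (at most 4) and the 2 non-members with the highest mean CPM (not corrected for length), together with 4 OPC markers. *Porcn*, *Wls*, *Lef1*, *Nkd1*, *Rnf43*, *Sp8*, *Tnks2*, *Cd44*, *Tubb3*, *Rbfox3*, *Gad2* and *Slc17a6* were named after their values were seen. Promoter windows came from a RefSeq table of GRCr8 matched by symbol. No mRatBN7.2 genome was used here.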

Additional observations from a re-analysis of the deposited data

How the results depend on the processing

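Among the 10 genes, the count called higher was 1 and became 5 with library size only and 0 with replicates 1 to 3 only, replicates 4 to 6 only, the log2 total as a covariate, or thinning; leaving out 1 library gave 0 to 1 higher and 0 to 1 lower. *Wnt7b* was at 0.54 with replicates 1 to 3 only (edgeR adjusted p = 0.0690). Over the whole table, 626 genes higher became 1136 with upper-quartile scaling, 5515 with library size only, 53 with replicates 1 to 3, 0 with the covariate and 405 after thinning, and 436 to 823 with 1 library left out. The 1520 lower became 405 with library size only, 343 with replicates 1 to 3 and 43 with the covariate, and 1165 to 1664 with 1 library left out. The WNT list genes called higher, 2 as reported, were 4 with DESeq2, 7 with upper-quartile scaling, 58 with library size only, 6 without a filter, 6 with at least 10 counts in every library, 6 without ribosomal RNA and the 20 most abundant genes, and 0 with replicates 1 to 3, the covariate or thinning, and 1 to 4 with 1 library left out. Those called lower, 4 as reported, were 2 with upper-quartile scaling, 1 with library size only, 2 without a filter, 1 with replicates 1 to 3, 2 with replicates 4 to 6 and 0 with the covariate, and 2 to 4 with 1 library left out. The cause of these changes was not tested.

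The sign reversed for *Ctnnb1* with library size only (0.36) and the covariate (0.02), for *Apc* with library size only (0.12), for *Znrf3* with library size only (0.34) and replicates 1 to 3 (0.11), for *Axin1* with filterByExpr (-0.0026) and the covariate (-0.14), and for *Gsk3b* with replicates 1 to 3 (-0.12), the covariate (-0.49) and thinning (-0.0054). With 1 library left out, *Axin1* ran from -0.0854 to 0.0774, *Gsk3b* from -0.0416 to 0.12 and *Znrf3* from -0.15 to 0.0143. The *Wnt7b* to *Ctnnb1* log2 ratio was 0.62 with replicates 1 to 3 and 0.26 with replicates 4 to 6 (exact permutation p = 0.100 each, the smallest that 3 against 3 allows), and 0.34 to 0.49 with 1 library left out.

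The groups share replicate numbers, which are not stated to mark a litter, batch or day. Same-number correlations of deviations from the group means were 0.296, -0.0245, -0.0481, 0.0555, -0.276 and 0.207, and only replicate 1 correlated best with its own number. Whether the numbers pair the libraries was not tested. With the number as a replicate block, 1 of the 10 genes was called higher, *Wnt7b* at 0.36 (edgeR adjusted p = 0.0425). Depth limits *Axin2*, *Apcdd1* and *Daam2*, which rest on 0 to 16 counts in each standard library.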
